A study of Drosophila melanogaster with 28 samples.

Results

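The 3 genes described here, bam (bag of marbles), bgcn (benign gonial cell neoplasm) and mei-P26, were taken by name from the deposited expression tables. They are 3 of 17783 genes in the RNA-seq table and 3 of 13968 genes in the Ribo-seq table, and each had an estimate without a reported failure at all 7 time points of both assays. In the Drosophila ovary, a germline stem cell stays in contact with its niche and divides to give a daughter that leaves it. The niche sends a BMP signal that keeps bam transcription off in the stem cell, and the daughter turns bam on, becomes a cystoblast and divides into a cyst of connected germ cells. Bam acts in complexes with other proteins. Bgcn, a relative of DExH-box RNA helicases, is its best-known partner, and Mei-P26, a TRIM-NHL protein with a RING finger, acts with both on target mRNAs such as nanos and later restrains growth and division of the cyst.

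All samples were whole adult ovaries of females of 1 genotype. In a w background, each fly carried the bam86 allele, a deletion, on both copies of chromosome 3, on 1 of them together with the transgene insertion P{w[+mC]=hs-bam.O}11d, which holds bam under a heat shock promoter, and 1 copy of the driver nosP-GAL4-NGT40. The germ cells of such ovaries stop as cells that resemble stem cells until the transgene is switched on. The heat-shocked females were held at 37 °C for 1 h, then at 34 °C for 2 h, and were returned to 25 °C. Ovaries were collected at 0.5, 5, 9, 18, 28 and 38 h after heat shock (AHS) and without heat shock (no HS), with 2 RNA-seq and 2 Ribo-seq samples for each, 28 in all. The later collections were made by the study to enrich for successive cyst stages. Because the ovary is a mixture, fewer cells of a type and less RNA per cell cannot be told apart. Reads from the transgene and from what remains of the bam86 alleles were counted under the same gene name and cannot be told apart either, also at no HS.

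Each table holds 1 FPKM value (fragments per kilobase of gene model, scaled to the fragments mapped) per gene and time point, estimated by the authors over the 2 replicates together, with a lower and an upper 95% bound. There is no value per replicate, so no SD is given and no test across samples was possible. A value is written below with its bounds in parentheses, and a change is called where the fold between a time AHS and no HS was over 1.6 and either of the FPKM values exceeded 10. The read depth behind the values is unknown. Genes over 10 FPKM had bounds that lay at a median of 19.7% to 19.9% from the value in the RNA-seq and 25.4% to 25.7% in the Ribo-seq. The 18 h AHS columns listed the most genes at 0, namely 3960 in the RNA-seq against 3280 to 3714 at the other time points, and 4629 in the Ribo-seq against 3380 to 3909.

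To show what the bam and mei-P26 readings were taken over, the reference sequence (dm6) is given at the points that matter for how the 2 genes are read and switched. The bam gene lies on the minus strand at 3R:25243039-25245109 with 1 annotated transcript of 3 exons and 1946 bases, of which 1326 code for protein. The mei-P26 gene lies on the plus strand at X:9163255-9189309 with 6 annotated transcripts of 7 or 8 exons and a coding length of 3567 to 3930 bases. The Ribo-seq loci of the table cover only the coding span, 3R:25243526-25244976 for bam and X:9166539-9171175 for mei-P26, so footprint values exclude the UTRs. The windows of 30 bases around the annotated start codons, with the ATG in capitals, lie at 3R:25244962-25244991 and X:9166524-9166553.
bam start: tttaacttaagaataATGcttaatgcacgt
mei-P26 start: cttgtttgtaggacaATGactactttggag

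The element through which the BMP signal silences bam in stem cells lies just behind the transcript start, in the 5′ UTR. In Drosophila, the Smad proteins Mad and Medea with Schnurri bind such elements, whose form is GNCGNCNNNNNGTCTG on one strand and CAGACNNNNNGNCGNC on the other, with N for any base. A search of both forms found a match at bases 29 to 44 of the bam transcript, shown in capitals within 30 bases at 3R:25245059-25245088.
bam silencer site: gaattcgCAGACAGCGTGGCGTCaggcatt

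The silencer form occurred in the window of 50 bases before to 100 bases after the start in 14 of 13968 protein-coding genes (0.100%), and not in that window of bgcn or mei-P26. The heat shock factor binds inverted repeats of GAA, and a run of 3 units is written GAANNTTCNNGAA or TTCNNGAANNTTC. In the 200 bases before the annotated start neither form was present in bam, bgcn or mei-P26. It was present there in 39 of the 13968 genes (0.279%) and in 7 of the 14 heat shock genes listed for comparison. The shorter form of 2 units, GAANNTTC or TTCNNGAA, was found in 1495 of the 13968 (10.7%), in 10 of the 14 heat shock genes and in none of the 3 genes. Hsp22, Hsp27, Hsp83 and DnaJ-1 lacked it too. Hsp68, whose time course is set beside that of bam below, had the most 3-unit matches of the listed genes. Its window and that of bam are shown with matches to the 3-unit form in capitals. They are the minus strand of 3R:25245110-25245309 for bam and of 3R:24057311-24057510 for Hsp68.
bam upstream: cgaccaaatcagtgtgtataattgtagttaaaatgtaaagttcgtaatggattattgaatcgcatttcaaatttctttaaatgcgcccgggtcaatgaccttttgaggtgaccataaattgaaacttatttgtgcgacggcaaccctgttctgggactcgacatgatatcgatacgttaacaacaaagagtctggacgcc
Hsp68 upstream: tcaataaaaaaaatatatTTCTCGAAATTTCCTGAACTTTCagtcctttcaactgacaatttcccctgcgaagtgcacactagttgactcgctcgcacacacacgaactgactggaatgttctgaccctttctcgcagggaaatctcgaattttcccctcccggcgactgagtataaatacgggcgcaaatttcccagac

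These matches describe the reference letters only. The promoter that drives the transgene is not the bam window shown, and the sequence of the bam86 alleles was not read here.

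bam was the gene that moved furthest of the 3. Its RNA was 44.5-fold and its footprints 81.1-fold higher at 0.5 h AHS than at no HS, and both then declined through the remaining collections. RNA-seq gave 23.7 FPKM (19.0 to 28.3) at no HS, 1053 (846 to 1260) after 0.5 h, 181 (146 to 216) after 5 h, 74.3 (59.7 to 88.9) after 9 h, 46.5 (37.8 to 55.2) after 18 h, 24.7 (19.9 to 29.5) after 28 h and 18.1 (14.4 to 21.7) after 38 h. The bounds of the 0.5, 5, 9 and 18 h values lay wholly above those of no HS, while those of 28 and 38 h overlapped them. On the log2 scale, the change against no HS was 5.47 (approximate 95% interval 5.07 to 5.88) after 0.5 h, 2.94 after 5 h, 1.65 after 9 h, 0.97 (0.58 to 1.36) after 18 h, 0.06 after 28 h and -0.39 (-0.80 to 0.02) after 38 h. These intervals join the errors given by the bounds of the 2 values as if they were independent.

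The bam footprints covered a wider range than the RNA and did not settle at the no HS level. Ribo-seq gave 36.2 FPKM (26.7 to 45.7) at no HS, 2934 (2204 to 3665) after 0.5 h, 493 (385 to 601) after 5 h, 137 (108 to 167) after 9 h, 24.1 (16.9 to 31.3) after 18 h, 22.7 (16.0 to 29.3) after 28 h and 11.4 (6.94 to 15.8) after 38 h. The values at 0.5, 5 and 9 h were called higher, with log2 changes of 6.34 (5.82 to 6.86), 3.77 and 1.92. At 18 and 28 h the values were below that of no HS, with overlapping bounds and log2 changes of -0.59 and -0.68 that did not reach the fold needed for a call. At 38 h the footprints fell, at 11.4 FPKM against 36.2 FPKM at no HS, a log2 change of -1.67 (-2.35 to -0.99). RNA fell most between 0.5 and 5 h. Footprints fell by similar amounts between 0.5 and 5 h (log2 step -2.57, -3.05 to -2.09) and between 9 and 18 h (-2.51, -3.04 to -1.98). The later steps differed between the assays. RNA fell 5.81-fold between 0.5 and 5 h, 2.44-fold between 5 and 9 h and differed by just under 1.6-fold between 9 and 18 h, whereas footprints fell 5.95-fold, 3.59-fold and 5.70-fold over the same steps. Between 18 and 28 h it was the RNA that fell, by 1.88-fold, and the footprints differed by 1.06-fold with overlapping bounds.

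**Figure D1:**
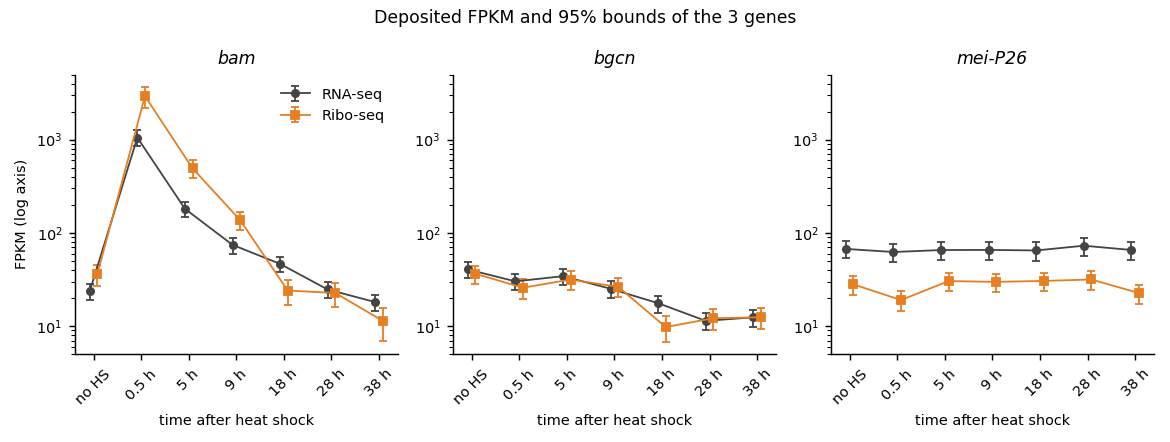
FPKM of bam, bgcn and mei-P26 (log axis) at no HS and 6 times after heat shock, in RNA-seq (circles) and Ribo-seq (squares), with the deposited 95% bounds as bars. bam peaks at 0.5 h AHS in both assays, bgcn declines to between 9.76 and 12.4 FPKM at 28 h and later in RNA and from 18 h in footprints, and mei-P26 RNA stays between 62.3 and 72.8 FPKM.

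The ratio of footprints to RNA, taken as translation efficiency, was therefore not constant for bam. It was 1.53 (1.10 to 2.12) at no HS, 2.79 (2.03 to 3.83) after 0.5 h, 2.72 (2.03 to 3.64) after 5 h, 1.85 (1.38 to 2.47) after 9 h, 0.518 (0.364 to 0.737) after 18 h, 0.918 (0.645 to 1.31) after 28 h and 0.629 (0.405 to 0.974) after 38 h. The ratio was thus highest at the 2 collections with the most bam RNA and lowest at 18 h, when the RNA was still 1.96-fold above no HS and the footprints were below it. Against no HS the log2 change of the ratio was 0.87 (0.21 to 1.52) after 0.5 h, 0.83 (0.20 to 1.46) after 5 h, 0.27 (-0.36 to 0.91) after 9 h, -1.56 (-2.25 to -0.87) after 18 h, -0.73 (-1.43 to -0.04) after 28 h and -1.28 (-2.07 to -0.49) after 38 h. Past 1.6-fold, it was called higher at 0.5 and 5 h and lower at 18, 28 and 38 h, though the intervals of the ratios at 0.5, 5 and 28 h overlapped that of no HS. Among all genes with RNA over 10 FPKM, 3.91% and 1.19% were called higher at 0.5 and 5 h, and 2.34%, 5.57% and 5.78% were called lower at 18, 28 and 38 h. At 18 h only 16 of 6280 genes (0.255%) had a lower log2 change than bam. The 18 h libraries were also those with the most genes at 0 and with the highest summed footprints of the follicle and egg shell genes Yp1, Yp2, Yp3, Cp36 and Vm26Aa (109751 FPKM at 18 h, against 70329 at no HS). Of the 18 h sum, 92548 FPKM came from a single gene. Only Vm26Aa of these genes was called higher in footprints at 18 h, beside 2.37% of all genes. The 18 h RNA-seq values also had the highest sum over all genes, 1.93e+06 FPKM against 1.08e+06 to 1.24e+06 at the other times. The median RNA of the 5034 genes over 10 FPKM at all times in both assays was 34.6 FPKM at 18 h, against 34.4 at no HS. The part of the genes at 0, of the RNA sum and of the egg shell genes in the low bam ratio was not tested.

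**Figure D2:**
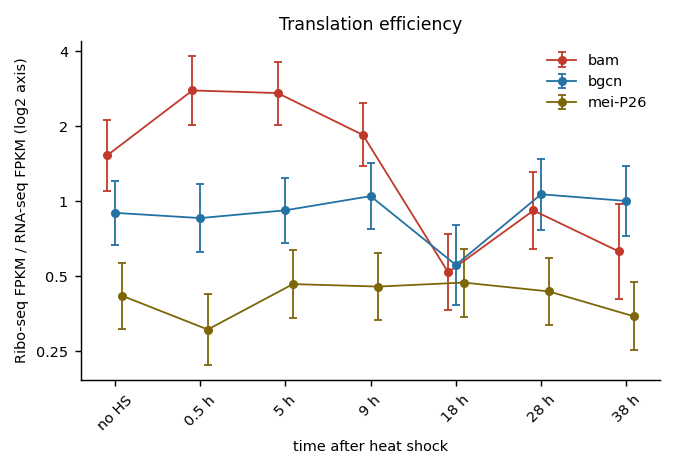
Footprint FPKM divided by RNA FPKM (log2 axis) for the 3 genes at each time point, with approximate 95% intervals from the deposited bounds. The bam ratio spans 0.518 at 18 h to 2.79 at 0.5 h AHS, while bgcn stays between 0.555 and 1.07 and mei-P26 between 0.305 and 0.471.

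bgcn went down as bam RNA declined, and it had no early rise. RNA-seq gave 40.5 FPKM (32.6 to 48.5) at no HS, 30.2 (24.1 to 36.2) after 0.5 h, 34.3 (27.5 to 41.1) after 5 h, 25.1 (20.0 to 30.2) after 9 h, 17.6 (13.9 to 21.3) after 18 h, 11.4 (9.06 to 13.7) after 28 h and 12.4 (9.88 to 14.9) after 38 h. The values at 0.5 and 5 h overlapped the bounds of no HS, and those from 9 h on lay wholly below them. The RNA fell 1.61-fold after 9 h, just past the fold needed, 2.30-fold after 18 h, 3.56-fold after 28 h and 3.26-fold after 38 h, with a log2 change of -1.83 (-2.24 to -1.43) after 28 h. The decline was spread over the collections: of the steps between neighbouring times, only that between 18 and 28 h separated the bounds.

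The footprints of bgcn moved in a single step. Ribo-seq gave 36.4 FPKM (28.2 to 44.6) at no HS, 25.8 (19.7 to 31.9) after 0.5 h, 31.5 (24.4 to 38.7) after 5 h, 26.4 (20.3 to 32.4) after 9 h, 9.76 (6.82 to 12.7) after 18 h, 12.1 (8.98 to 15.3) after 28 h and 12.4 (9.27 to 15.6) after 38 h. The bounds of the first 4 collections overlapped each other, as did those of the last 3, and the step of 2.70-fold between 9 and 18 h was the only one that separated them. Against no HS the footprints fell by 1.90, 1.59 and 1.55 on the log2 scale at 18, 28 and 38 h AHS. The ratio of footprints to RNA was 0.555 (0.384 to 0.800) at 18 h and between 0.855 and 1.07 at the other times AHS, against 0.898 (0.666 to 1.21) at no HS. The 18 h value was called lower by a small margin and with an interval that overlapped that of no HS, with a log2 change of -0.70 (-1.38 to -0.01), and 2.25% of genes had a lower one. The bgcn gene lies on the minus strand at 2R:23853270-23858921, has 2 transcripts of 5 exons and a coding length of 3630 to 3645 bases, and holds Pym, on the same strand, within an intron. Pym RNA was between 8.81 and 11.7 FPKM and shares no exon base with bgcn.

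mei-P26 RNA did not pass the call at any time. It was 67.3 FPKM (53.3 to 81.3) at no HS, 62.3 after 0.5 h, 65.4 after 5 h, 65.7 after 9 h, 64.8 after 18 h, 72.8 (57.0 to 88.7) after 28 h and 65.6 after 38 h. All 7 values lay within each other's bounds, and the log2 changes against no HS ran between -0.11 and 0.11. The interval of the change at 28 h, the largest, ran from -0.32 to 0.55, so a change smaller than the fold needed for a call could not be resolved. The footprints were 28.0 FPKM (21.8 to 34.2) at no HS, 19.0 (14.4 to 23.6) after 0.5 h, 30.4 (23.6 to 37.2) after 5 h, 29.8 after 9 h, 30.5 after 18 h, 31.6 after 28 h and 22.6 (17.4 to 27.8) after 38 h. The lowest value, at 0.5 h, differed from no HS by a log2 change of -0.56 (-1.03 to -0.09), with overlapping bounds and short of the call. mei-P26 had the lowest footprint-to-RNA ratio of the 3 genes at every time, between 0.305 at 0.5 h and 0.471 at 18 h AHS, against 0.416 (0.307 to 0.564) at no HS. However, the intervals of all 3 genes overlapped at 18 h, and those of mei-P26 and bam at 38 h. None of its ratios was called changed.

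Read over the 6 comparisons with no HS, the calls of the 3 genes are few and can be set against those of all genes over 10 FPKM. In the RNA-seq, 1 of 3 was called higher (bam) at 0.5, 5, 9 and 18 h, where 4.87%, 1.29%, 1.63% and 4.2% of all genes were, and 1 of 3 was called lower (bgcn) at 9, 18, 28 and 38 h, where 2.35%, 1.16%, 1.12% and 1.24% were. In the Ribo-seq, 1 of 3 was higher (bam) at 0.5, 5 and 9 h, where 10.5%, 2.86% and 4.74% of all genes were. Footprints were lower for 1 of 3 (bgcn) at 18 and 28 h, where 3.34% and 4.96% were, and for 2 of 3 (bam and bgcn) at 38 h, where 5.24% were.

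Because FPKM is scaled to gene length, the 3 levels can be set beside each other within an assay. At no HS the RNA levels were ordered mei-P26 (67.3 FPKM), bgcn (40.5) and bam (23.7), with separate bounds for each neighbour, and 90.8%, 83.5% and 71.7% of the genes over 0 lay below them. The footprint levels at no HS, 28.0, 36.4 and 36.2 FPKM in the same order of genes, had overlapping bounds, and between 60.2% and 66.2% of genes lay below them. At 0.5 h AHS bam stood 34.9-fold above bgcn in RNA and 114-fold (80.6 to 160) in footprints, and above 98.8% and 99.1% of all genes. The excess of bam footprints over bgcn was 15.6-fold after 5 h, 5.21-fold after 9 h, 2.47-fold after 18 h and 1.87-fold after 28 h. At 38 h AHS bam and bgcn footprints, 11.4 and 12.4 FPKM, had overlapping bounds again, both below the 22.6 FPKM of mei-P26. Both stood below the level they had shared at no HS, bgcn at a log2 change of -1.55 and bam at -1.67.

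**Figure D3:**
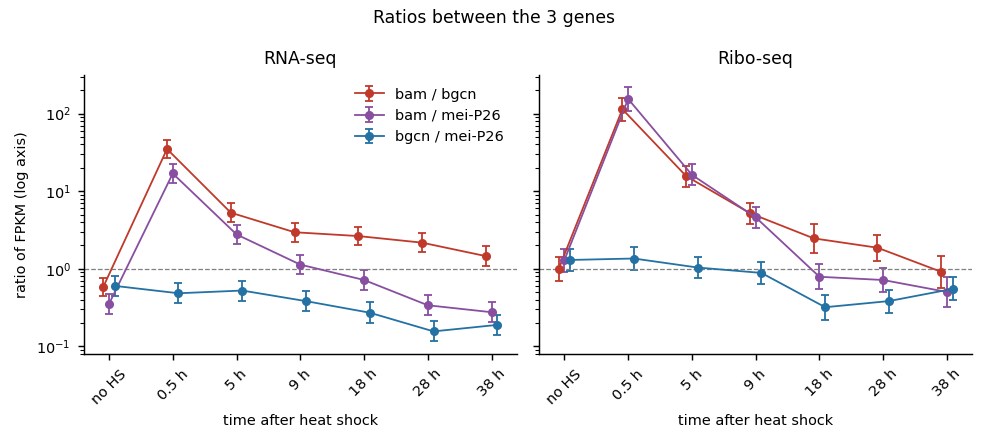
Ratios of FPKM between the 3 genes (log axis) in RNA-seq (left) and Ribo-seq (right), with approximate 95% intervals and a dashed line at 1. In footprints bam over bgcn is 0.994 at no HS, 114 at 0.5 h and 0.914 at 38 h AHS, and bgcn over mei-P26 is 0.884 at 9 h, with an interval that includes 1, and 0.320 at 18 h AHS, with one that lies below 1.

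The heat shock that switched on the transgene also acted on the flies' own heat shock genes, and these gave the time courses nearest to that of bam. Over the 6 log2 changes against no HS, the 5 nearest of the 6617 genes compared in the RNA-seq were Hsp26, Hsp68, Hsp22, Hsp70Ab and Hsp70Bc, with root mean square differences of 0.34, 0.58, 0.60, 0.84 and 0.86. In the Ribo-seq, the 5 nearest of 6663 were Hsp26, Hsp23, Hsp22, Hsp68 and Hsp70Bbb, at 0.85 to 1.22. All encode chaperones that bind unfolded proteins. The Hsp70 copies are nearly identical to each other, so how the authors' counting split reads between them is uncertain. At no HS, Hsp70Ab and Hsp70Bc RNA stood at 0.45 and 0.47 FPKM and Hsp70Bbb footprints at 0.55. These 3 exceeded 10 FPKM only at 0.5 h, so their nearness to bam at later times rests on very low values. Hsp26 RNA, the nearest, was 151 FPKM at no HS, 4493 after 0.5 h, 928 after 5 h, 400 after 9 h, 250 after 18 h, 167 after 28 h and 144 after 38 h. Like bam RNA it was called higher at 0.5, 5, 9 and 18 h and not afterwards.

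The 7 of 14 listed heat shock genes that were over 20 FPKM and at least 3-fold higher at 0.5 h in both assays, a choice made after their values were seen, were Hsp22, Hsp23, Hsp26, Hsp27, Hsp68, Hsp83 and DnaJ-1. At 5 h AHS bam RNA stood at 17.2% of its 0.5 h value, and these 7 at 6.82% (Hsp68) to 58.0% (Hsp27). At 18 h bam was at 4.41% and the 7 at 2.01% (Hsp22) to 23.7% (Hsp83). Their footprint-to-RNA ratios differed from bam early and moved with it later. At 5 h the log2 change of the ratio was 0.83 for bam and between -0.57 and 0.21 for the 7. At 18 h it was -1.56 for bam and between -1.86 (Hsp23) and 0.03 (DnaJ-1) for the 7, of which Hsp22, Hsp23, Hsp26 and Hsp68 were called lower. Those 4 were called lower at 28 and 38 h as well. The low late ratio was therefore shared by bam and 4 of the 7 heat shock genes, and the high ratio at 5 h was not. The ratio of Hsp23, for example, was 5.36 at no HS, 5.75 after 0.5 h, 3.99 after 5 h, 4.78 after 9 h, 1.47 after 18 h, 3.16 after 28 h and 2.59 after 38 h.

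**Figure D4:**
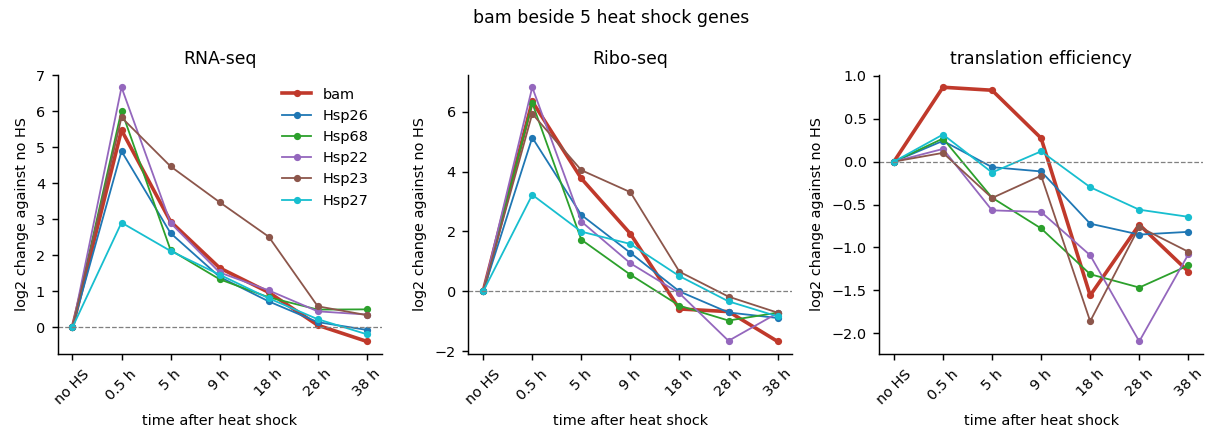
Log2 change against no HS of bam (thick line) and 5 heat shock genes in RNA-seq, Ribo-seq and translation efficiency at each time. In translation efficiency bam is above the 5 genes at 5 h AHS, at 0.83, and Hsp23 is the lowest at 18 h, at -1.86.

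The genes nearest to bgcn formed no list fixed here. In the RNA-seq they were RpL22-like, CG43088, CG3251, CG14346 and CG12493, at root mean square differences of 0.25 to 0.35, and in the Ribo-seq CG3251, CG12493, HP6, CG42489 and stau, at 0.39 to 0.47. CG3251 and CG12493 were thus named in both. At no HS the 5 genes named in RNA stood at only 10.3 (CG43088) to 21.2 FPKM (RpL22-like). Their nearness to bgcn at later times, when they had fallen, therefore rests on low values. RpL22-like, a paralogue of the ribosomal protein RpL22 that is enriched in the germline, had RNA changes of -0.35, -0.40, -0.81, -1.38, -2.21 and -1.32 on the log2 scale at 0.5, 5, 9, 18, 28 and 38 h AHS. stau encodes Staufen, a double-stranded RNA-binding protein that localises mRNAs in the oocyte, and HP6 a chromo shadow domain protein related to HP1. For mei-P26, whose RNA moved so little, the nearest genes (CG6689, Hpr1, Cul1, CG2662 and Nup62 in RNA, tam, CG2021, kuz, mRpL44 and mew in footprints) were ones that also stayed near their no HS level, at differences of 0.03 to 0.05 and 0.10 to 0.12. bam was ranked 6596 and mei-P26 2376 of 6617 genes by nearness to bgcn in RNA, so the 3 genes did not share a time course. A nearness over 6 time points says nothing of shared function or control.

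**Figure D5:**
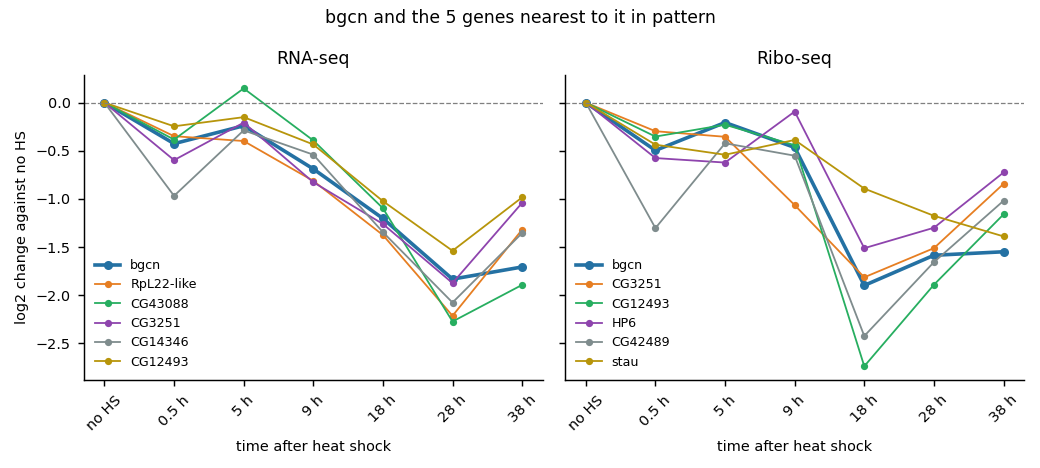
Log2 change against no HS of bgcn (thick line) and of the 5 genes nearest to it in RNA-seq (left) and Ribo-seq (right). All 6 lines of the left panel are lowest at 28 h AHS, where bgcn is at -1.83.

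Of the partners, targets and regulators of the 3 genes, 36 genes named from textbook knowledge, few changed in RNA. At each time 35 were over 10 FPKM, and none was called higher. Lower calls were made for tn, a TRIM-NHL relative of mei-P26, at 0.5 h and for nos at 5 and 9 h AHS, where 4.38%, 1.74% and 2.35% of all genes were called lower. The median log2 change of the 36 lay between -0.13 and 0.04 over the 6 times, beside 0.02 to 0.06 for all genes. nos, which encodes the translational repressor Nanos that keeps germline stem cells undifferentiated and is a target of Bam, Bgcn and Mei-P26, stood out. Its RNA was 83.3 FPKM at no HS, 63.8 after 0.5 h, 30.9 after 5 h, 28.5 after 9 h, 65.3 after 18 h, 102 after 28 h and 87.5 after 38 h. Its footprints were 112 at no HS, 42.7 after 0.5 h, 11.9 at both 5 and 9 h, 77.8 after 18 h, 110 after 28 h and 98.9 after 38 h. The footprints were called lower at 0.5, 5 and 9 h, the 3 times at which bam footprints were called higher. Footprints of Hsp22, Hsp23, Hsp26 and Hsp27 were called higher at the same 3 times. Every heated fly carried the transgene, so an effect of Bam and one of the heat cannot be told apart.

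In footprints, 32 or 33 of the 36 were over 10 FPKM and more were called. At 0.5 h AHS 5 rose (tut, Usp47, pAbp, put and Smurf) and 5 fell (Sxl, nos, pum, Rbp9 and how), against 10.5% and 7.55% of all genes. The 5 h collection had 0 of them called higher and 3 lower (Sxl, nos and how), where 6.58% of all genes were lower. That of 9 h had 2 higher (Not1 and Rbfox1) and 3 lower (nos, Rbp9 and how), beside 4.74% and 9.02%. That of 18 h had 1 higher (Rbfox1) and 2 lower (Sxl and Rbp9), beside 2.37% and 3.34%, and that of 38 h had 2 higher (Mad and Rbp9) and 1 lower (Sxl), beside 3.82% and 5.24%. No footprint value of the 36 was called at 28 h. how encodes the Held Out Wings protein, which represses bam mRNA in the testis. Its footprints fell to 100 FPKM after 0.5 h, 92.8 after 5 h and 85.3 after 9 h, against 165 at no HS. Rbp9, an Elav-family protein that binds bam mRNA and turns it down in cysts, had footprints of 19.0 FPKM at no HS, 9.96 after 0.5 h, 12.0 after 5 h, 7.51 after 9 h, 6.43 after 18 h, 22.1 after 28 h and 42.0 after 38 h. It was thus called lower at 0.5, 9 and 18 h and higher at 38 h. Whether Rbp9 bears on the bam values here was not tested.

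Sxl, the RNA-binding partner with which Bam and Bgcn act on nos, had footprints of 258 FPKM after 0.5 h, 189 after 5 h, 240 after 18 h and 247 after 38 h, each called lower than the 418 at no HS, though with overlapping bounds and a no HS value whose lower bound was 0. Its RNA was between 102 and 152 FPKM and was never called. Rbfox1, which promotes cyst development, had footprints of 34.1 FPKM at 9 h and 36.1 at 18 h AHS, called higher against 20.4 at no HS. Not1, the scaffold of the CCR4-NOT deadenylase, with which Bam is associated, had 137 at 9 h AHS, against 83.2 at no HS. Mad, the Smad that relays the BMP signal to the bam silencer, had 81.5 FPKM at 38 h AHS, against 44.4 at no HS. dpp, the BMP ligand itself, stayed at or under 6.09 FPKM in RNA and 2.29 in footprints. tut, which acts with Bam and Bgcn in the testis, was measured in these ovaries at 15.4 to 35.9 FPKM in RNA and at 3.05 to 12.5 in footprints. vas, which binds the mei-P26 mRNA and activates its translation, was not called in either assay, with RNA between 184 and 211 FPKM and footprints between 336 and 399.

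The cell types in the samples were read from marker lists. The summed RNA of the germline markers vas, aub, nos, ovo and otu ran between 415 FPKM at 9 h and 569 at 28 h AHS, against 505 at no HS. Of these markers only nos, a target of Bam, was called in RNA. At 9 h it was at 28.5 FPKM, against 83.3 at no HS, and vas at 199, against 205. The sum therefore mixes a change of nos with any change in germ cell number. The summed RNA of orb, bru1 and Rbfox1, which mark germ cells further along, ran between 175 at 9 h and 406 at 38 h AHS, against 220 at no HS. The 7 escort and follicle cell markers ran between 358 and 472 FPKM, and the 5 muscle markers between 403 at 5 h and 677 at 38 h AHS. The cap and terminal filament markers hh, en and Lmx1a were near 0, at a sum of 1.47 to 2.28 FPKM. Both orb and bru1 were called higher only at 38 h AHS, in both assays. Rbfox1 differed from them, and its RNA was not called at any time. Its footprints were called higher at 9 and 18 h, at 34.1 and 36.1 FPKM. At 38 h they were 17.1 FPKM, against 20.4 at no HS. At 18 h, when bgcn footprints had already fallen, orb RNA was 67.3 FPKM, against 78.0 at no HS. The orb footprints were called lower at that time, at 25.7 FPKM against 50.7. The summed RNA of the yolk protein and egg shell genes Yp1, Yp2, Yp3, Cp36 and Vm26Aa was 14970 FPKM at no HS, 18341 after 0.5 h, 13293 after 5 h, 19620 after 9 h, 25016 after 18 h, 31040 after 28 h and 28161 after 38 h. Of these genes, 2 of 5 were called higher at 18 h, 5 of 5 at 28 h and 4 of 5 at 38 h. Among all genes, 4.2%, 2.4% and 2.73% were called higher at those times. The summed footprints of the 5 genes were 28551 FPKM at 5 h and 28979 at 9 h AHS, against 70329 at no HS. At both times 5 of 5 were called lower, where 6.58% and 9.02% of all genes were. The late decline of bgcn RNA thus went with higher RNA of these genes, whose part in it was not tested.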

How the data were processed

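RNA-seq and Ribo-seq were made from whole ovaries at 7 time points, with 2 samples each per assay. Per the paper's methods and the labels, the authors trimmed reads, discarded those matching non-coding RNAs with Bowtie2 (RNA-seq) or Bowtie (Ribo-seq), mapped the rest to dm6 with STAR, and in the Ribo-seq first collapsed identical reads. The deposited FPKM values and their bounds, also in FPKM, came from Cuffdiff 2.2.1, with the replicates combined. Its library normalisation, annotation and use of strand are not given in the sources used here. This matters for bam, whose last 224 transcript bases overlap CG11854 on the opposite strand, and whose RNA-seq locus in the table, 3R:25242020-25245109, joins both genes. CG11854 RNA was between 1.95 and 4.14 FPKM.

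From these tables, fold changes, footprint-to-RNA ratios and ranks were computed with Python 3.11.15, numpy 2.4.6 and pandas 2.3.3, and plotted with matplotlib. Each bound was read as 2 standard errors away, and intervals of ratios were formed from them on the log scale. Comparisons covered the whole table. Low values did not fall on common steps (the commonest log2 ratio of low genes took 0.574% to 1.53% of them), so depth was not recovered. The 5 nearest genes had to exceed 10 FPKM at some time, be over 0 at all 7 in that assay and have a row in both tables. The genes named are the 3 genes, the nearest 5 of each, list members that were called, and markers. Alternatives were a pseudocount, a common median, other thresholds, non-overlapping bounds, other gene sets and another measure of nearness. The members and lists were chosen with earlier results of these data known, and the motifs after them.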

Additional observations from a re-analysis of the deposited data

How the results depend on the processing

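No paired analysis was possible because the tables hold 1 pooled value per gene and time point, which also meant that no replicate could be left out. The log2 changes of the 3 genes against no HS kept their direction under every alternative run. Their steps did too, except that a common median turned 4 steps that had overlapping bounds, those of bam footprints between 18 and 28 h (0.02, against -0.09 as deposited), of mei-P26 RNA between 5 and 9 h and between 9 and 18 h, and of mei-P26 footprints between 9 and 18 h. With a common median, the bam footprint step between 9 and 18 h (-2.56) was a larger fall than that between 0.5 and 5 h (-2.46). The RNA and footprint calls of the 3 genes were kept with an FPKM minimum of 20 and with non-overlapping bounds, which were not applied to the ratios. A fold threshold of 2 ended the calls for bam RNA at 18 h AHS (0.97), bgcn RNA at 9 h (-0.69), and the footprint-to-RNA ratios of bam at 0.5 h (0.87), 5 h (0.83) and 28 h (-0.73) and of bgcn at 18 h (-0.70). A pseudocount of 1 FPKM ended those of bgcn RNA at 9 h (-0.67) and of the bgcn ratio at 18 h (-0.64), and a common median that of the bam ratio at 28 h (-0.63). Calls over all genes and the 6 times together numbered 1151 higher and 806 lower in the RNA-seq, and 1760 higher and 2369 lower in the Ribo-seq. With a fold threshold of 2 they were 625, 429, 799 and 1066. Non-overlapping bounds left 694 higher RNA calls and 850 higher and 1043 lower footprint calls. Genes in both tables gave 677 higher RNA calls, and a minimum of 20 FPKM 496 lower ones.

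The nearest genes depended on the measure. By Pearson correlation over the 7 values, 1 of the 5 was shared for bam RNA, 2 for bam footprints, 1 for bgcn RNA, 0 for bgcn footprints, 2 for mei-P26 RNA and 3 for mei-P26 footprints. Without 0.5 h AHS, 3 of 5 were shared for bam in each assay, 3 for bgcn footprints and 0 for mei-P26 in each. With bounds at a median of 19.7% to 25.7% from the value, smaller changes, such as those of mei-P26, could not be resolved.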

Other observations

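CG11854, which overlaps the end of bam on the opposite strand and lies outside the lists above, was singled out after its values were seen. Its footprints were 39.2 FPKM at no HS, 99.6 after 0.5 h, 3.10 after 5 h, 3.06 after 9 h, 29.9 after 18 h, 3.26 after 28 h and 3.15 after 38 h. Its RNA was between 1.95 and 4.14 FPKM throughout. The footprint values at 0.5 h were called higher, where 10.5% of all genes were. Those at 5, 9, 28 and 38 h were called lower than no HS, where 6.58%, 9.02%, 4.96% and 5.24% of all genes were. The 224 shared bases lie outside the bam coding span over which bam footprints were counted. Footprints of bam were 493 FPKM at 5 h, against 36.2 at no HS. The source of the CG11854 footprints was not tested.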
